A study of Homo sapiens with 8 samples.

Results

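The ligands of immune co-signalling receptors encoded by 10 genes were followed in human breast cancer cells. The genes were TNFSF4, TNFSF9, TNFSF15, CD70, CD274, PDCD1LG2, CD276, ICOSLG, VTCN1 and PVR. They are 10 of 22027 genes with a probe on either of 2 array platforms, and every probe that the platform annotation pairs with them was taken, 15 of 28098 single-gene probes on the Illumina and 25 of 41091 on the Affymetrix arrays. The genes were selected on the intensities of these same arrays, with the results of both comparisons known. Which value weighed for which gene is not recorded. Their values are therefore given as a description, no p-value is attached to them, and a count of members past a threshold is no independent evidence.

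Total RNA was profiled on 8 arrays, 2 per group, called A and B. MDA-MB-231 cells, a triple-negative line that the labels call poorly metastatic, and LM2 cells, its derivative labelled highly metastatic, were hybridised to Illumina bead arrays. LM2 control cells and LM2 cells that over-express the microRNA miR-126 were hybridised to Affymetrix arrays. All 4 groups were grown in the same serum-supplemented medium. How miR-126 was introduced, what the control cells carried, and whether arrays A and B came from separate cultures are not stated, so the spread between arrays may be technical. A fall in the share of cells that express a gene and a fall in its RNA per cell cannot be told apart in such bulk RNA.

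T cells need a signal beside that of the antigen receptor, and these ligands on tumour or antigen-presenting cells give or withhold it. The TNF superfamily members TNFSF4 (OX40 ligand), TNFSF9 (4-1BB ligand), TNFSF15 (TL1A) and CD70 are trimeric proteins that engage OX40, 4-1BB, DR3 and CD27 and in general stimulate lymphocytes. Of the B7 family, CD274 (PD-L1) and PDCD1LG2 (PD-L2) bind the inhibitory receptor PD-1, ICOSLG stimulates through ICOS, and VTCN1 (B7-H4) and CD276 (B7-H3) have receptors that are less settled and are mostly described as inhibitory. PVR (CD155), a nectin-like adhesion molecule, is bound by the activating receptor CD226 and the inhibitory receptor TIGIT.

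Of the sequences behind the comparisons, the mature forms of the over-expressed microRNA come first, since the second comparison rests on them. They are taken from RefSeq (GRCh38.p14, plus strand) at chr9:136670653-136670674 and chr9:136670616-136670636, with the seed, bases 2 to 8, in capitals. Neither form was measured on these arrays.
hsa-miR-126-3p: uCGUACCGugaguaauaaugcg
hsa-miR-126-5p: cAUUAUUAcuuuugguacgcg

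Promoters follow for TNFSF4, whose groups did not overlap in either comparison, and for CD274, whose promoter is a textbook interferon-responsive one. Shown are the 250 bases before an annotated transcription start in RefSeq (GRCh38.p14), each read 5′ to 3′ towards that start. They lie at chr1:173205533-173205782 on the minus strand for TNFSF4 and at chr9:5450292-5450541 on the plus strand for CD274. The RefSeq span of TNFSF4 reaches further upstream, to chr1:173450733, and any start there was not searched. Capitals mark matches, on either strand, to the interferon motifs ISRE (TTTCNNTTTC) and GAS (TTCNNNGAA), or to the AP-1 motif (TGANTCA).
TNFSF4: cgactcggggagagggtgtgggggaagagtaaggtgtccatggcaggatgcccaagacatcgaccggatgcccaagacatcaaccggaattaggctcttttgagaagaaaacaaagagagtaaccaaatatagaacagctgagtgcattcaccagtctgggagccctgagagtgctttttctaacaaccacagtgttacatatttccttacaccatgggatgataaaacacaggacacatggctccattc
CD274: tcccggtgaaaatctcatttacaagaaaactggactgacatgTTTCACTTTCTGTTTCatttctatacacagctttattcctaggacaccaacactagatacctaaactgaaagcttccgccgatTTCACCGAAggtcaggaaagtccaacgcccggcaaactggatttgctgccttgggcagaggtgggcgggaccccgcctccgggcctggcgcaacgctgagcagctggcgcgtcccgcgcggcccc

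The CD274 window held 2 overlapping ISRE matches, whose first bases lie 208 and 202 bases before the start, and 1 GAS match at 125 bases. The TNFSF4 window held none of the 3 motifs. Among 35116 promoter windows of the same length, 3.02% held the ISRE letters, 6.57% the GAS letters and 6.57% the AP-1 letters. Promoter windows were found for 8 of the 10 genes. Besides CD274, TNFSF9 had 1 ISRE match and TNFSF15 had 1 AP-1 match. These matches are a description of the letters only.

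The Illumina intensities were linear with a median of 94.39 on each array, and the Affymetrix intensities were relative to an array median of 1. Only probes whose mean exceeded the median over the whole platform were tested, 16434 Illumina and 23065 Affymetrix probes. Of the members, 13 of 15 Illumina probes and 19 of 25 Affymetrix probe sets passed this filter, from 8 genes on each platform; no probe of PDCD1LG2 or VTCN1 passed on either. Over the tested probes, arrays A and B differed by a mean absolute value of 0.239 log2 in MDA-MB-231, 0.184 in LM2, 0.099 in LM2 control and 0.289 in LM2 miR-126 cells. By the same measure the group means were 0.22 log2 apart on the Illumina and 0.164 log2 apart on the Affymetrix platform. Averaging the arrays of a group shrinks the array noise in its mean. A gap between group means is therefore not comparable in size with a gap between single arrays, and they are not ranked here. The cells carried the markers of this kind of line, with VIM, CD44, EGFR, KRT8, KRT18 and KRT19 all above the 75th percentile of probes on every array. ESR1 and PGR lay below the filter on the Illumina arrays, and on the Affymetrix arrays ESR1 lay above it, at the 59.1 to 63.4 percentile. ERBB2 was above the filter on both, at the 92.1 to 94.1 percentile on the Illumina and the 82.3 to 83.9 percentile on the Affymetrix arrays.

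The first comparison asked how LM2 cells differ from MDA-MB-231 cells. TNFSF4 and CD70 stood higher in LM2, by similar amounts for CD70 and the brighter TNFSF4 probe, and no member stood lower past the threshold. CD274 stood lower on both LM2 arrays without passing, and CD276, ICOSLG and PVR showed small differences or probes that disagreed. With limma and Benjamini-Hochberg adjustment over all tested probes, 3 of 13 member probes were called higher and 0 lower, beside 0.755% called higher and 1.26% called lower among all probes, and nothing is read from this since the members were chosen on this contrast. The median difference was 0.070 log2 over the 13 member probes and -0.042 over all tested probes, and the median absolute difference was 0.312 and 0.146.

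**Figure D1:**
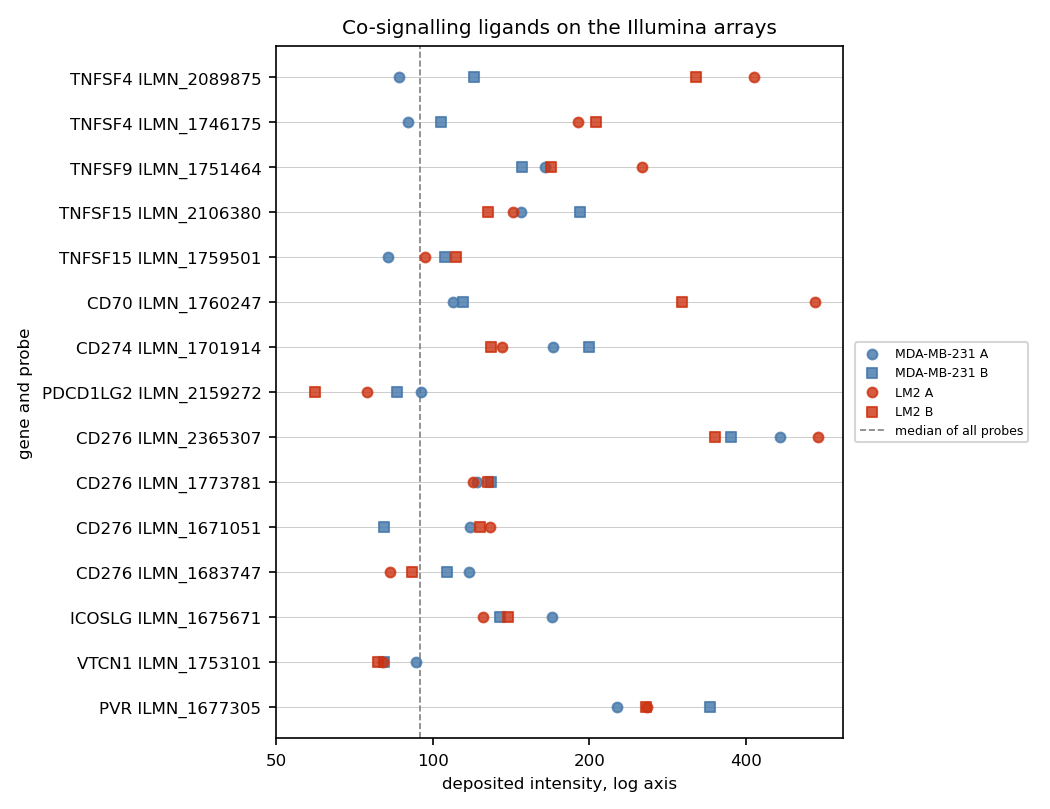
Deposited Illumina intensity (log axis) of each member probe on the 4 arrays, MDA-MB-231 in blue and LM2 in red, with array A as a circle and array B as a square. The dashed line is the median of all probes (94.39). Both TNFSF4 probes and the CD70 probe separate the lines. The smaller gaps of CD274, TNFSF9, PDCD1LG2, VTCN1, TNFSF15 ILMN_2106380, CD276 ILMN_1671051 and CD276 ILMN_1683747 also leave the lines without overlap.

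TNFSF4, on chromosome 1 (RefSeq span chr1:173172870-173450733, GRCh38.p14, minus strand), encodes the OX40 ligand. Its brighter probe, ILMN_2089875, read 86.0 and 119.9 on the MDA-MB-231 arrays and 414 and 321 on the LM2 arrays. The second probe, ILMN_1746175, read 89.6 and 104 in MDA-MB-231 and 190.1 and 206 in LM2. Both probes were higher on each LM2 array than on each MDA-MB-231 array. In MDA-MB-231 they lay around the median of all probes, and they passed the filter through LM2. Intensities include background, so folds of such dim probes understate the change. On the log2(intensity + 16) scale the first probe went from 6.88 ± 0.29 to 8.57 ± 0.25 (SD, n = 2 each), a difference of 1.69 (SE 0.20) or 3.23-fold. The second went from 6.81 ± 0.13 to 7.74 ± 0.074, a difference of 0.93 (SE 0.14) or 1.90-fold. Ranked by size, the first was the 30th largest positive difference of 16434 probes and the second the 135th.

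With single arrays left out, the first TNFSF4 probe stayed between 1.49 and 1.90 log2 and the second between 0.84 and 1.02. These fits reuse the arrays on which the gene was chosen, so no support is read from them. The second probe was no longer called with LM2 array A left out, nor under a variance prior without a trend.

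CD70, the ligand of CD27, was the other member of the TNF superfamily that stood apart. Its probe ILMN_1760247 read 109 and 114 in MDA-MB-231 and 542 and 302 in LM2. The MDA-MB-231 arrays nearly coincided, while LM2 array A lay well above array B, and both lay above the parental arrays. The log2 level was 6.998 ± 0.040 in MDA-MB-231 and 8.72 ± 0.57 in LM2, a difference of 1.72 (SE 0.24) or 3.30-fold, the 27th largest positive difference. It was 1.32 without LM2 array A and 2.13 without LM2 array B, and it lost its call under a variance prior without a trend.

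TNFSF9, which lies beside CD70 on chromosome 19 (chr19:6531026-6535924 for TNFSF9 and chr19:6581648-6591150 for CD70), moved less. It read 164 and 149 in MDA-MB-231 and 253 and 169 in LM2, a difference of 0.37 log2 (SE 0.20) that was 0.10 without LM2 array A and 0.64 without LM2 array B. TNFSF14, a further TNF superfamily gene named here because it neighbours them, read 224 and 241 in MDA-MB-231 and 212 and 219 in LM2. Of this cluster CD70 alone was called. TNFSF18, the GITR ligand gene and a neighbour of TNFSF4, read 87.8 and 105 in MDA-MB-231 and 99.4 and 113 in LM2, with overlapping groups. The 2 probes of TNFSF15 pointed in different directions, at -0.29 log2 (SE 0.16) for ILMN_2106380 and 0.13 (SE 0.12) for ILMN_1759501, and neither was called.

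CD274 and PDCD1LG2, the ligands of PD-1, are neighbours on chromosome 9 (chr9:5450542-5470554 and chr9:5510531-5571282). CD274 read 171 and 199.8 in MDA-MB-231 and 136 and 129.5 in LM2. The groups did not overlap, and the log2 difference was -0.43 (SE 0.15), between -0.54 and -0.33 with single arrays left out, and was not called in any of those fits. PDCD1LG2 read 95.2 and 85.4 in MDA-MB-231 and 74.9 and 59.3 in LM2, below the median of all probes on all but 1 array, so it was not tested. VTCN1 was as dim, between 78.4 and 93.0 on the 4 arrays.

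CD276 had 4 Illumina probes, and they did not agree. The brightest, ILMN_2365307, read 465 and 374 in MDA-MB-231 and 550.1 and 349.6 in LM2, which overlap. ILMN_1671051 differed by 0.32 log2 and ILMN_1683747 by -0.31, each with groups that did not overlap, while ILMN_1773781 differed by -0.017. Without MDA-MB-231 array A, the probe ILMN_1671051 was at 0.56 and was called, and it was at 0.086 without array B. ICOSLG read 169.9 and 135 in MDA-MB-231 and 125 and 139 in LM2, and PVR read 226 and 341 against 258 and 257. Both overlapped, and for PVR the spread within MDA-MB-231 covered the LM2 arrays. Over the 13 tested probes the groups did not overlap for 5 that were higher and 3 that were lower in LM2, beside 15.7% and 28.1% of all tested probes.

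**Figure D2:**
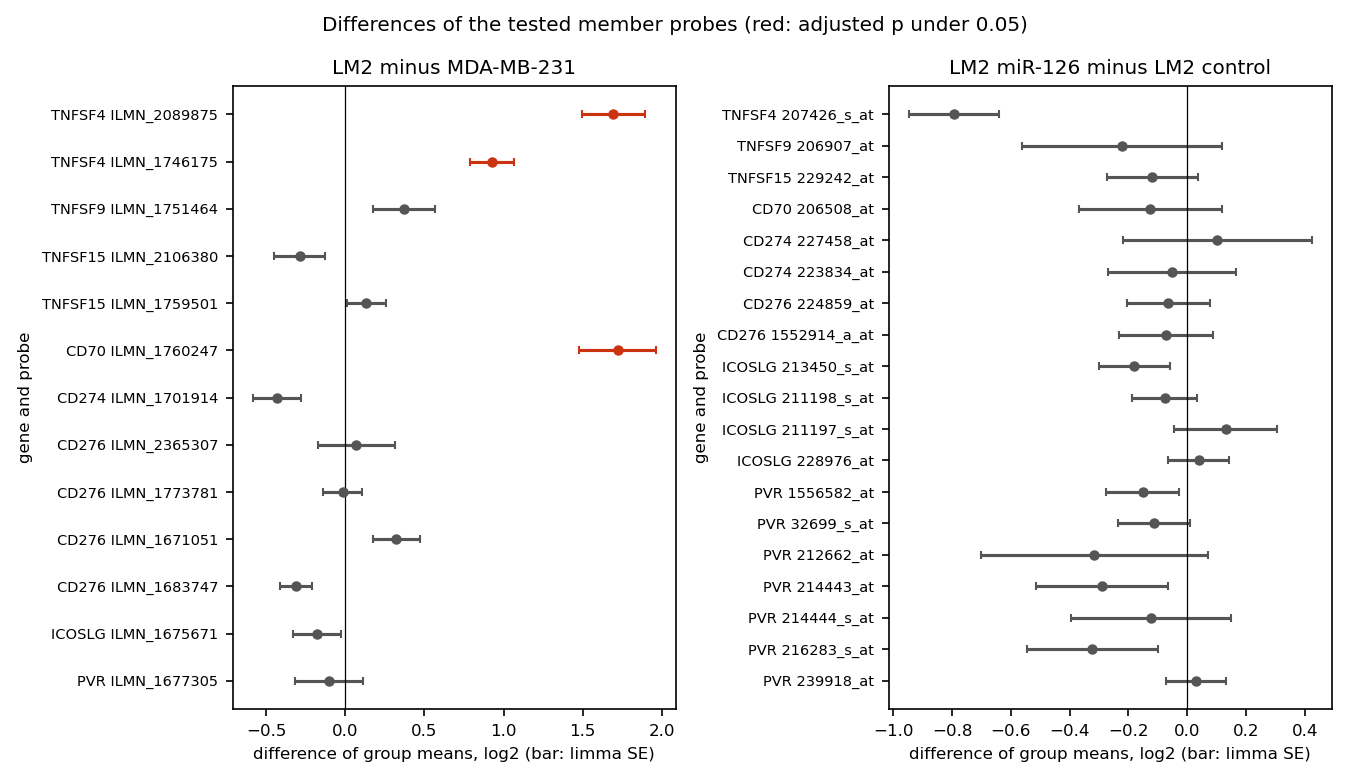
Difference of group means (log2, horizontal axis) with its limma standard error for each tested member probe, LM2 minus MDA-MB-231 on the left and LM2 miR-126 minus LM2 control on the right; red marks an adjusted p under 0.05. TNFSF4 has the probes at 1.69 and 0.93 on the left and lies at -0.79 on the right, CD70 lies at 1.72 and -0.13, and the scales of the panels differ.

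The 3 probes whose profile over the 4 Illumina arrays lay nearest to that of TNFSF4, by the distance of centred log2 values over 16432 probes, belonged to PAPPA (distance 0.135), PPP2R2C (0.198) and MT1F (0.221). PAPPA encodes a protease of IGF-binding proteins and MT1F a metallothionein, a family of close paralogs that may share a probe. PAPPA read 129 and 202 in MDA-MB-231 and 663 and 511 in LM2. As with the TNFSF4 probe ILMN_2089875, array B was the higher one in MDA-MB-231 and array A the higher one in LM2.

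Receptors, relatives and regulators of these ligands were then counted in lists of 97 genes, each by its brightest probe. Of 67 tested in LM2 against MDA-MB-231, 1 was higher and 4 were lower, beside the 0.755% and 1.26% of all probes. The lists were chosen with earlier results of these data known. Their counts and adjusted p-values are therefore a description, and no enrichment is read from them. Among 11 tested co-signalling receptors 1 was lower, CD40, an activating receptor of antigen-presenting cells that carcinoma cells may also carry. It read 216 and 210.4 in MDA-MB-231 and 103 and 86.6 in LM2, with a log2 change of -1.05 (SE 0.14, limma adjusted p = 0.00411). Its second probe stood at -0.21 (limma adjusted p = 0.377), and the call was lost without LM2 array A or B (adjusted p = 0.0636 and 0.103). The receptors of TNFSF4, TNFSF9 and CD70 themselves were dim in these tumour cells. TNFRSF4 read 94.4 to 99.4 and TNFRSF9 97.9 to 126 over the 4 arrays, and CD27 lay below the filter; these were named as receptors of the members.

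Of 9 other TNF superfamily ligands, 1 fell in LM2. This was TNFSF10, the death ligand TRAIL, at 1310 and 808 in MDA-MB-231 and 243 and 104 in LM2 (log2 change -2.57, SE 0.34, limma adjusted p = 0.00385). It thus moved opposite to TNFSF4 and CD70. TNFSF10 lost its call under a variance prior without a trend (adjusted p = 0.0643).

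Among 16 other B7, butyrophilin, nectin and related genes, 1 rose and 2 fell. CADM1, a nectin-like adhesion molecule, read 98.4 and 75.8 in MDA-MB-231 and 343 and 333 in LM2 (log2 change 1.79, SE 0.17, limma adjusted p = 0.000786). In MDA-MB-231 it lay around the median of all probes, and like TNFSF4 it passed the filter through LM2. BTN3A2 and BTN3A3 are close paralogs of the butyrophilin family, some members of which take part in gamma delta T cell recognition, and their probes may share transcripts. BTN3A2 went from 375 and 331 to 179 and 174 (log2 change -0.93, SE 0.18, limma adjusted p = 0.0266), with a second probe at -0.52. BTN3A3 went from 162 and 155 to 104 and 93.9 (log2 change -0.60, SE 0.13, limma adjusted p = 0.037). Both were lost without either LM2 array, with adjusted p between 0.25 and 0.399, and under a variance prior without a trend. BTN3A3 was also lost under quantile normalization (adjusted p = 0.0545).

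Of the regulators, limma called 0 of 15 genes known to regulate PD-L1 and 0 of 17 genes of TNF receptor and NF-kB signalling. At an unadjusted limma p under 0.05 were 2 and 1 of them, beside 13.9% of all tested probes. The nearest was IFNGR2, a subunit of the interferon gamma receptor, at 3541 and 2836 in MDA-MB-231 and 1600 and 1461 in LM2 (log2 difference -1.04, SE 0.24, limma adjusted p = 0.0564). It was named after its values were seen and was called lower under several other settings, among them 1 probe per gene. Several genes of these lists were not analysed here.

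Markers of other cells were summed beside these values. Of 8 lymphocyte markers 2 were above the filter on the Illumina arrays and their summed intensity ran from 726 to 734 in MDA-MB-231 and from 721 to 766 in LM2. Of 8 myeloid markers 5 were above it, CD14 at or above the 91.7 percentile on every array, with sums of 1382 to 1474 and 1264 to 1567. Of 6 endothelial markers 3 were above it, with sums of 549.6 to 585 and 579 to 605. None was called on either platform. The leukocyte marker PTPRC lay below the median of all probes on all arrays.

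The second comparison asked how LM2 cells with over-expressed miR-126 differ from LM2 control cells. TNFSF4 stood lower on both miR-126 arrays, opposite to its direction in LM2 against MDA-MB-231. Of the 19 member probe sets, 15 had a mean difference below 0 and 4 above. Several of them share a gene, the groups overlapped for 15 of the 19, and the share of all probes below 0 was not counted. TNFSF9 and CD70 were low on array A only, and CD274 and most PVR probe sets were low on array B only. With limma, 0 of 19 member probe sets were called higher and 0 lower, and likewise 0% of all 23065 probes were called in either direction, with 1862 of all probes (8.07%) at an unadjusted p under 0.05. The median difference was -0.12 log2 over the 19 member probe sets and 0.011 over all tested probes, and the median absolute difference was 0.122 in both.

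**Figure D3:**
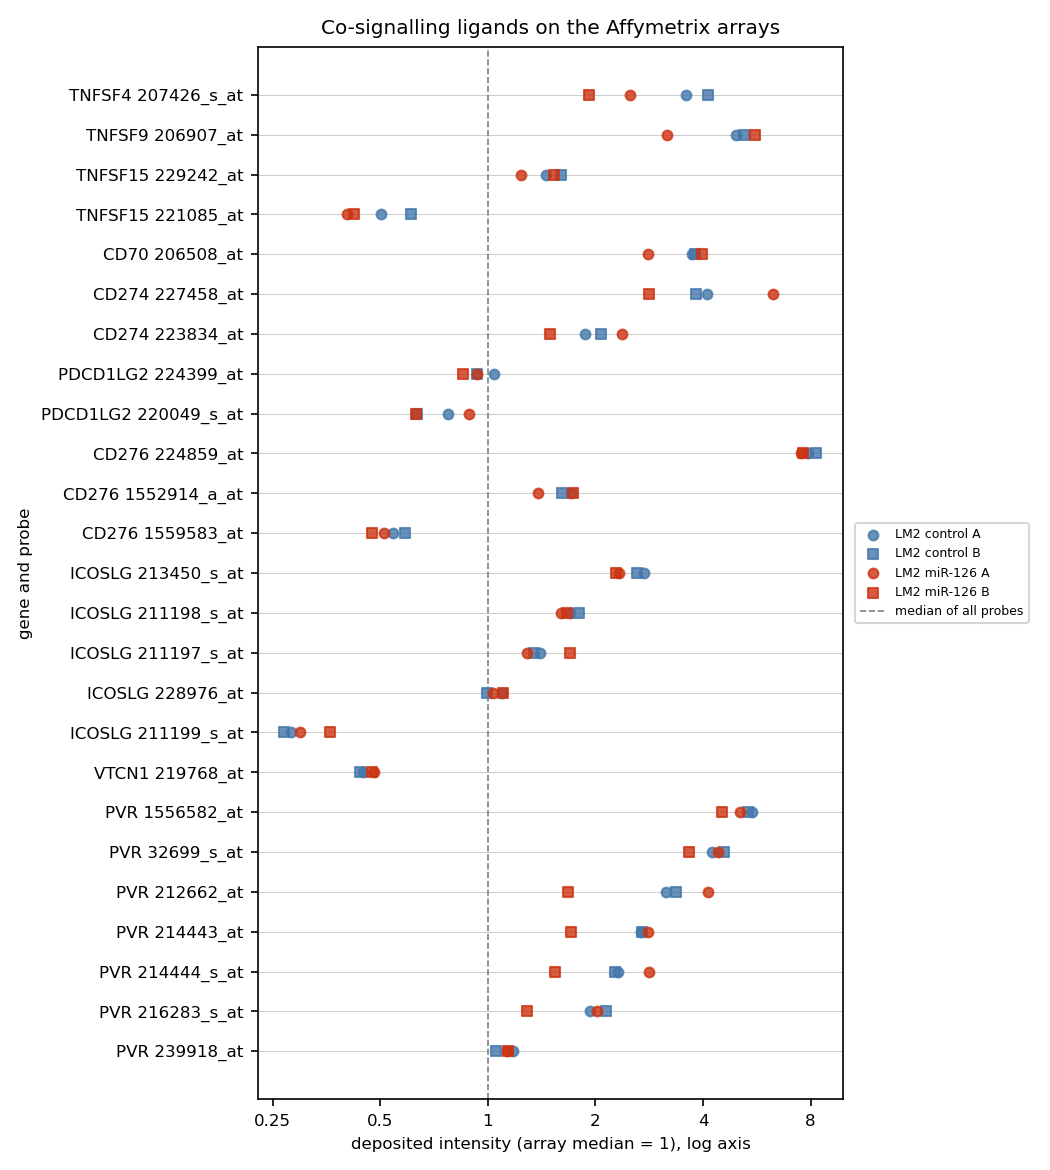
Deposited Affymetrix intensity (relative to the array median of 1, log axis) of each member probe set on the 4 arrays, LM2 control in blue and LM2 miR-126 in red, with array A as a circle and array B as a square. TNFSF4 is lower on both miR-126 arrays, and the red circle and square fall on opposite sides of the blue points for TNFSF9, CD70 and CD274.

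TNFSF4 had 1 probe set, 207426_s_at. It read 3.59 and 4.13 in control cells and 2.50 and 1.91 in miR-126 cells, so each miR-126 array lay below each control array. After quantile normalization the log2 level was 1.93 ± 0.11 in control and 1.14 ± 0.19 in miR-126 cells (SD, n = 2 each), a difference of -0.79 (SE 0.15), or 1.73-fold lower. This was the 103rd largest negative difference of 23065 probe sets. The difference was -0.93 without miR-126 array A and -0.66 without array B, and between -0.87 and -0.72 without a control array.

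The brightest tested probe of each gene was set side by side for the 9773 genes tested on both platforms. Here 29 genes were higher in LM2 than in MDA-MB-231 by at least as much as TNFSF4. By the same rule 49 were lower in miR-126 than in control cells, with TNFSF4 included in both counts. The cut-offs are the differences of TNFSF4 itself, so it meets both by construction. Both held for 2 genes, TNFSF4 and RASD1, which encodes a Ras-related GTPase and was named after its values were seen. RASD1 read 16.2 and 17.3 in control cells but 5.92 and 14.4 on the miR-126 arrays, so its difference came mostly from array A. The members were selected with both comparisons known, and the count is a description. It also depends on the probe, since the second Illumina probe of TNFSF4, at 0.93 log2, would set a lower cut-off. Counts at that cut-off were not made.

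CD70 read 3.73 and 3.80 in control cells and 2.81 and 3.97 in miR-126 cells, so that the miR-126 arrays lay on both sides of the controls (difference -0.13 log2, SE 0.24). TNFSF9 showed the same arrangement, at 4.95 and 5.21 in control cells and 3.18 and 5.59 in miR-126 cells (-0.22 log2, SE 0.34). Neither the higher level of CD70 in LM2 nor the smaller difference of TNFSF9 was thus met by an opposite one on both miR-126 arrays. TNFSF15 was dim, with 229242_at between 1.24 and 1.60 and overlapping groups, and 221085_at below the filter.

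The PD-1 ligand CD274 was higher on miR-126 array A and lower on array B. Its probe set 227458_at read 4.10 and 3.82 in control cells and 6.27 and 2.83 in miR-126 cells. The second probe set, 223834_at, lay 0.24 log2 above the control mean on array A and at -0.35 from it on array B. Both probe sets thus gave the same arrangement, and their mean differences were 0.10 (SE 0.32) and -0.052 (SE 0.22). For 227458_at the difference was -0.37 without array A and 0.57 without array B, so the direction for CD274 is not settled by these arrays. PDCD1LG2 and VTCN1 lay below the filter, between 0.63 and 1.04 and between 0.438 and 0.481 of array units.

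The 7 PVR probe sets did not move together. The probe sets 212662_at, 214443_at, 214444_s_at and 216283_s_at, were low on miR-126 array B alone, by 0.90, 0.59, 0.52 and 0.63 log2 below the control mean. On array A the same probe sets lay between -0.019 and 0.27 of it. The first, 212662_at, read 3.15 and 3.37 in control cells and 4.12 and 1.68 in miR-126 cells. The brightest, 1556582_at, and 32699_s_at were nearer to control on both arrays, at differences of -0.15 (SE 0.12) and -0.11 (SE 0.12), and 239918_at was near the array median throughout. Probe sets for 1 gene thus differed in size on array B, where all but 239918_at lay below the control mean. On array A they differed in direction.

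CD276 and ICOSLG differed little. The brightest CD276 probe set, 224859_at, read 7.85 and 8.30 in control cells and 7.52 and 7.63 in miR-126 cells, a difference of -0.065 log2 (SE 0.14) after normalization. Of 5 ICOSLG probe sets, 213450_s_at had the lower miR-126 arrays, at 2.32 and 2.28 against 2.73 and 2.61 (-0.18 log2, SE 0.12), and the other 3 that were tested overlapped after normalization. ICOSLG has a near-identical annotated copy on the same chromosome, and its probe sets may not tell them apart.

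**Figure D4:**
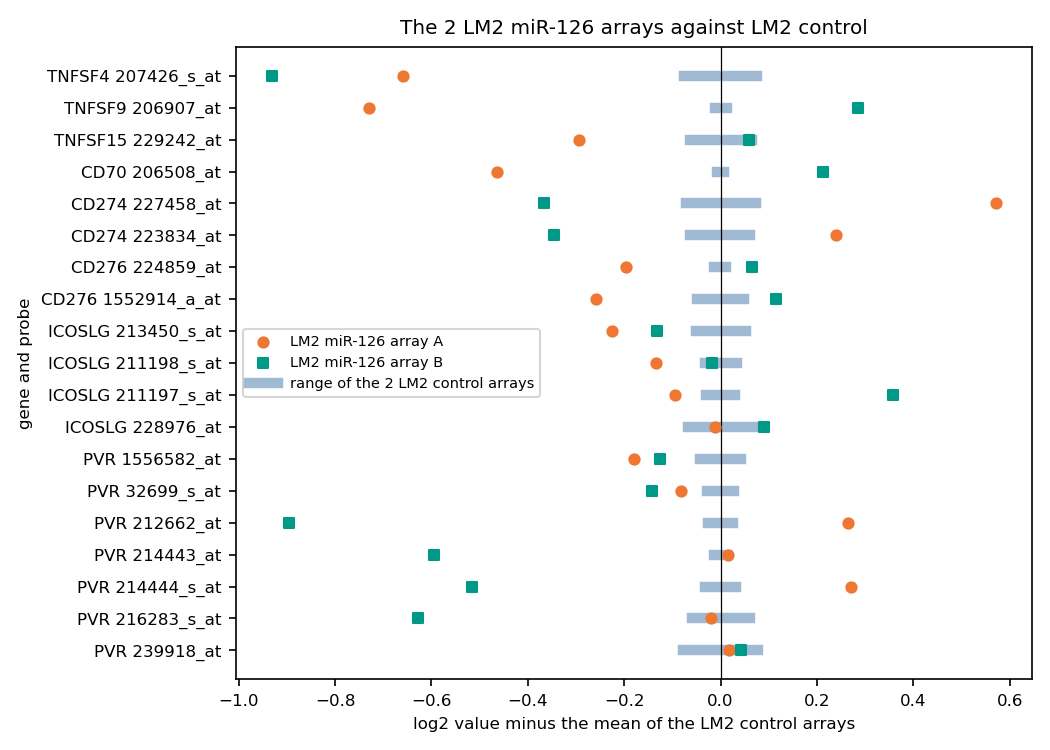
Log2 value of each tested member probe set on the 2 LM2 miR-126 arrays minus the mean of the LM2 control arrays, after quantile normalization, with array A as an orange circle and array B as a green square; the blue bar spans the 2 control arrays. TNFSF4 lies at -0.66 and -0.93, CD274 and 4 PVR probe sets are low on array B, and TNFSF9 and CD70 are low on array A.

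Counted over the 19 probe sets, 4 lay below both control arrays on each miR-126 array, TNFSF4, ICOSLG 213450_s_at and PVR 1556582_at and 32699_s_at, and none lay above on each, beside 19.5% and 20.4% of all tested probes. For 32699_s_at this held only after normalization, as the deposited values overlapped. The reverse held for CD276 224859_at and ICOSLG 211198_s_at, which were lower on each miR-126 array as deposited and overlapped after normalization. Another 5 lay below control on array A and above it on array B, and 5 the other way round. The gap between the miR-126 arrays moves with these values, and its part in them was not tested. With either miR-126 array left out, limma called probes in both directions, members among them, where the full fit called none. The filter was applied anew in each such fit, so the probes tested need not be the same. In such a fit the lone miR-126 array is assumed to vary like the closely matched control arrays. The calls for CD274 227458_at and TNFSF9 had opposite directions in these fits.

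Nearest to TNFSF4 over the 4 Affymetrix arrays, by the same distance over 23064 probe sets, were MERTK (0.094), WARS1 (0.109) and PCK2 (0.113). MERTK is a receptor tyrosine kinase, WARS1 the cytosolic tryptophanyl-tRNA synthetase and PCK2 the mitochondrial phosphoenolpyruvate carboxykinase. MERTK 211913_s_at read 2.37 and 2.60 in control cells and 1.49 and 1.19 in miR-126 cells. None of these 3 was among the 3 nearest on the Illumina arrays.

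No gene of the lists of receptors, relatives and regulators was called with limma in miR-126 cells, 0 of 64 tested. At an unadjusted limma p under 0.05 were 8 of them, beside 8.07% of all tested probes. Their median difference was 0.047 log2. Of the genes that changed in LM2, CADM1 read 5.31 and 5.51 in control cells and 6.26 and 8.28 in miR-126 cells (0.44 log2, SE 0.23, limma adjusted p = 0.702). TNFSF10 read 1.29 and 1.39 in control cells and 0.625 and 2.97 in miR-126 cells, again on both sides of control. Markers of lymphocytes, myeloid and endothelial cells had summed intensities of 6.76 to 7.32, 8.10 to 8.12 and 9.21 to 9.51 in control cells and of 6.96 to 7.79, 6.88 to 9.72 and 8.07 to 9.40 in miR-126 cells, and PTPRC lay at or below the 17.3 percentile.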

How the data were processed

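Groups and array letters were taken from the sample titles. The authors deposited 1 table of linear intensity values per platform; for the software and the scaling applied before deposit, the sources used here give no name. Probes were named through the platform annotation, updated by Entrez identifier (28059 of 28098 single-gene Illumina probes and 41037 of 41091 Affymetrix probe sets matched), and probes with several genes or none were left out. Illumina intensities were taken as log2(value + 16), which understates changes of dim probes, and kept on their scale because array quartiles differed by 0.0493 log2. Affymetrix intensities were taken as log2 with no pseudocount and quantile normalized, because quartiles differed by 0.165. No detection p-values were used, so no level is called absent.

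Each table was fitted probe by probe with limma 3.58.1 in R 4.3.3 (lmFit, eBayes with a variance trend), two-sided, over all single-gene probes with a mean above the median, with Benjamini-Hochberg adjustment; an adjusted p under 0.05 was a call. With 2 arrays a group, the smallest p of an exact permutation test is 0.3333. The number of arrays limits the precision. A list gene was represented by its probe of highest mean, and up to 4 called genes per list were named; genes named outside this rule are marked. The members and lists were chosen with earlier results of these data known. The fit was tested on simulated data. Alternatives covered normalization, pseudocount, filter, probe rule, variance prior, replicate block and each array left out. Plots used matplotlib 3.10.9 (Python 3.11.15).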

Additional observations from a re-analysis of the deposited data

How the results depend on the processing

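No member probe called in LM2 against MDA-MB-231 changed direction under any alternative, and none of the list genes named for their call did. Quantile normalization gave 128 probes lower in place of 207 and put 51.5% of calls on the higher side in place of 37.5%. A variance prior without a trend gave 48 probes higher and 70 lower, 1 member probe (TNFSF4 ILMN_2089875) and 1 list gene lower. With single arrays left out, the counts ran from 24 to 384 higher and 13 to 534 lower, the lowest without LM2 array A and the highest without MDA-MB-231 array B, with 1 to 2 list genes higher and 1 to 6 lower. In the miR-126 comparison they ran from 0 to 3438 higher and 0 to 3180 lower, with 0 to 2 member probes higher and 0 to 7 lower, and 0 to 16 list genes higher and 0 to 12 lower. The nonzero counts came when a miR-126 array was left out, where the spread rests on the control arrays. The array letters are not stated to pair the arrays, and same-letter deviations correlated at 0.115 and 0.104 over probes. With the letter as a replicate block, 313 probes were higher and 638 lower in LM2, with 2 list genes higher and 8 lower, and 32 higher and 50 lower in miR-126 cells; the member calls were the same 3 and 0. The cause of these shifts was not tested. No detection calls were used, so the levels of the dim probes of PDCD1LG2 and VTCN1 are not separable from background.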
